A study of Mus musculus with 18 samples.

Results

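CpG-poor coding promoters are accessible chromatin regions that lie at the start of a protein-coding transcript but in sequence with few CG dinucleotides. In mouse bone marrow-derived macrophages (BMDM) 3741 such regions were counted, among 11095 accessible coding promoters and 58386 accessible regions on the 19 autosomes (59617 regions on all chromosomes). For each extended accessible region the summit, the position of strongest signal in a called peak, with the highest deposited score was kept. A region was a coding promoter when that summit lay within 1000 bp of a protein-coding transcript start (GENCODE M21, mm10). It was CpG-poor when the 1001 bp around the summit had a GC content under 50% or a CpG observed/expected ratio under 0.6, the ratio being the count of CG dinucleotides over the count expected from the C and G content. The other 7354 coding promoters are called CpG-rich here, and the remaining 47291 autosomal regions are called regions away from coding starts. The class was set by sequence alone, but the score selected which summit represents a region. A coding start with a weaker summit nearby was therefore not counted where the best summit of its region lay elsewhere.

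The regions came from ATAC-seq, in which the Tn5 transposase cuts and tags open chromatin, in BMDM from wild type male C57/BL6 mice. All cells received the vehicle DMSO for 1 h and were then left untreated or stimulated at 10 ng/mL with LPS, the bacterial ligand of Toll-like receptor 4, or with IL-4, the cytokine of alternative activation. Each stimulus was given for 30 min, 1 h, 2 h or 4 h, making 9 groups of 2 libraries and 18 libraries in all. The study used the regions as the reference catalog of cis-regulatory elements on which its histone acetylation was measured. The 3 deposited lists hold 1 pooled set of peaks, summits and extended regions for all 18 libraries. No comparison between stimuli, no replicate spread and no sequencing depth can therefore be given, and a lower score from fewer cells with an open region cannot be told apart from less opening in each cell. The score has no stated scale, and differences of scores are in its own units, with no meaning outside the catalog.

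Most mammalian promoters of housekeeping genes lie in CpG islands, stretches that escape DNA methylation and keep their CG dinucleotides. Promoters outside islands more often belong to genes with tissue-specific or strongly inducible expression, and in myeloid cells the ETS factor PU.1 binds many of them. LPS acts through NF-kB, AP-1 and interferon regulatory factors (IRFs), the last of which drive interferon-stimulated genes, while IL-4 acts through STAT6.

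A CpG-poor and a CpG-rich promoter from the listed genes show the difference that defined the class. Sirpa encodes an inhibitory receptor that binds CD47, and its region had the highest score among the listed macrophage genes. Eif4a1 encodes an RNA helicase of translation initiation. Both sequences are from mm10, extend at most 100 bases to either side of the summit, run 5′ to 3′ on the strand of the gene and have their CG dinucleotides in capitals. They come from chr2:129592541-129592741 (plus strand) for Sirpa and chr11:69672424-69672580 (minus strand) for Eif4a1.
Sirpa, CpG-poor: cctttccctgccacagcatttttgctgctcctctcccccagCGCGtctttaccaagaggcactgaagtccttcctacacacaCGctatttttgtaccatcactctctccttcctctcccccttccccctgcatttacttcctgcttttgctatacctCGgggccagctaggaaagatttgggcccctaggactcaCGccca
Eif4a1, CpG-rich: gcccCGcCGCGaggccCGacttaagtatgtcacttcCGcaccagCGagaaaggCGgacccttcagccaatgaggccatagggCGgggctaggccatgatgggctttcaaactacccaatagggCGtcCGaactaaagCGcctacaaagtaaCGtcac
The Sirpa stretch held 5 CG marks in 201 bases and the Eif4a1 stretch 12 in 157 bases. Over the 1001 bp windows around the summit the CpG ratio was 0.499 for Sirpa and 0.801 for Eif4a1, and the scores were 2179 and 2232. The Sirpa summit lies 198 bp upstream of the nearest start, and a window around the most upstream start had a ratio of 0.678 and would be CpG-rich.

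A further 6 stretches are shown because each holds a motif that the results below count. They are the best scored regions of listed genes whose match lay in an exon-free stretch around the summit, or for TATA before the start, each gene being used once. The match is in capitals and can lie on either strand. The Cd68 sequence is from the minus strand and the other 5 are from the plus strand of mm10. The PU.1 match (GAGGAAGT) is at Tnip3, an inhibitor of NF-kB signalling, at chr6:65590214-65590397. The AP-1 matches (TGACTCA) are at Cd68, a lysosomal glycoprotein of macrophages, at chr11:69666154-69666322. The NF-kB match is at Ncf4, a subunit of the phagocyte oxidase, at chr15:78244695-78244800. The IRF match (GAAANNGAA) is at the chemokine gene Ccl4, at chr11:83662365-83662565. The C/EBP match (TTGCNNAA) is at Spi1, which encodes PU.1 itself, at chr2:91082989-91083189. The TATA box (TATAAA) is at the MHC class I gene H2-Q4, at chr17:35379557-35379616.
Tnip3, PU.1: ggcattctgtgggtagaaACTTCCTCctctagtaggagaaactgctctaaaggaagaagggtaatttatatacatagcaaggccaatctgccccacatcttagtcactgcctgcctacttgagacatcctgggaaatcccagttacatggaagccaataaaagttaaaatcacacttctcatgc
Cd68, AP-1: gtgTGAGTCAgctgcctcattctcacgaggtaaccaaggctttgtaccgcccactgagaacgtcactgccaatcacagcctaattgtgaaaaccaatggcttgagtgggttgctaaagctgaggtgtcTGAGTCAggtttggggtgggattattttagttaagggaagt
Ncf4, NF-kB: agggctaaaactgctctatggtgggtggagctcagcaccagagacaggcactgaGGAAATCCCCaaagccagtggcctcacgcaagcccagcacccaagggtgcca
Ccl4, IRF: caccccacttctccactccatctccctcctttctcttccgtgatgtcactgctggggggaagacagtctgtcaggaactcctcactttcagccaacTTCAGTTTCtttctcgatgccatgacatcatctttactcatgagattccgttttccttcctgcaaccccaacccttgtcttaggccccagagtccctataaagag
Spi1, C/EBP: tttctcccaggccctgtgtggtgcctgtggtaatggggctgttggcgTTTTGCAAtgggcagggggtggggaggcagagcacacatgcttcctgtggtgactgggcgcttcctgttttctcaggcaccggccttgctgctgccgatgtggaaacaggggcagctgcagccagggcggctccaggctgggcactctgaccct
H2-Q4, TATA: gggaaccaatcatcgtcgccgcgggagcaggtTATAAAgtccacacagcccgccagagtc
The Spi1 stretch is centred 699 bp downstream of a start, and the other 5 lie upstream of theirs.

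Low CpG ratio rather than low GC content placed most members in the class. The ratio alone did so for 2226 members (59.5%), both conditions held for 1290 (34.5%) and GC content alone for 225 (6.01%). The median GC content was 51.6% (interquartile range 47.7% to 55.7%) and the median ratio 0.374 (0.221 to 0.536). Scores just inside and just outside the limits are given as a description. The 250 members with a ratio from 0.58 to under 0.60 had a median score of 1326, and the 260 CpG-rich promoters from 0.60 to under 0.62 a median of 1357. Of the members nearest the GC limit, Acyp2, encoding an acylphosphatase, and Rpl3, encoding a ribosomal protein, lay inside at 49.95%. Myof, encoding the membrane repair protein myoferlin, and Mrps21, encoding a mitochondrial ribosomal protein, lay outside at 50.05%. Nearest to the limit of the ratio were Inpp4b, an inositol phosphatase gene, inside at 0.599943 and Trim32, a ubiquitin ligase gene, outside at 0.600074. The next were the Slc4a2 and Cdk5 promoter inside at 0.599929 and the Pde6d and Cops7b promoter outside at 0.600197.

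**Figure D1:**
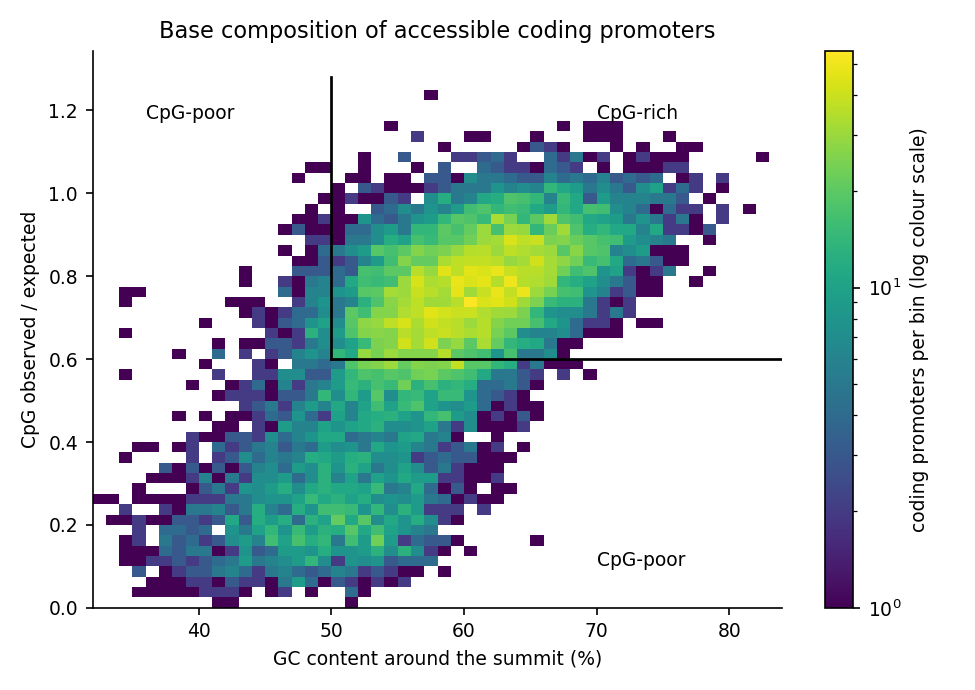
Base composition of the 11095 accessible coding promoters, with GC content of the 1001 bp window (%) on the horizontal axis, the CpG observed/expected ratio on the vertical axis and the number of promoters per bin as colour on a log scale. Black lines mark the limits of 50% and 0.6, and the 3741 CpG-poor promoters lie left of or below them, with a median ratio of 0.374 against 0.794 for the CpG-rich ones.

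CpG-poor promoters had lower summit scores than CpG-rich promoters and higher ones than regions away from coding starts. Their median score was 1117 (interquartile range 727 to 1505), against 1543 (1164 to 1864) and 727 (495 to 1106). The order held on every autosome, with a difference of medians from CpG-rich promoters of -594 to -315 and from other regions of 286 to 454. Scores above 1272, the upper quartile of all regions, were found for 38.5% of CpG-poor promoters (95% Wilson interval 36.9% to 40.0%). The shares were 67.9% of CpG-rich promoters and 16.8% of other regions. Within the class the score rose with the CpG ratio. The median was 911 for ratios under 0.2, 1013 from 0.2 to under 0.4 and 1236 from 0.4 to under 0.6, and it reached 1493 for promoters from 0.6 to under 0.8. Members that met both conditions had a median of 945, those with the ratio alone 1188 and those with GC content alone 1260.

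The peaks at CpG-poor promoters were also narrower, and their extended regions more often held a single summit. The median width was 261 bp (interquartile range 206 to 359), against 387 bp at CpG-rich promoters and 221 bp elsewhere, and it was smaller than at CpG-rich promoters on 19 of 19 autosomes. A single summit was found in 60.0% of CpG-poor, 44.5% of CpG-rich and 79.0% of other regions, while 5 or more summits were about as frequent in CpG-poor (3.31%) as in CpG-rich regions (3.62%). Among regions with a single summit, where no choice between summits was made, the median score was 934 for CpG-poor and 1456 for CpG-rich promoters.

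**Figure D2:**
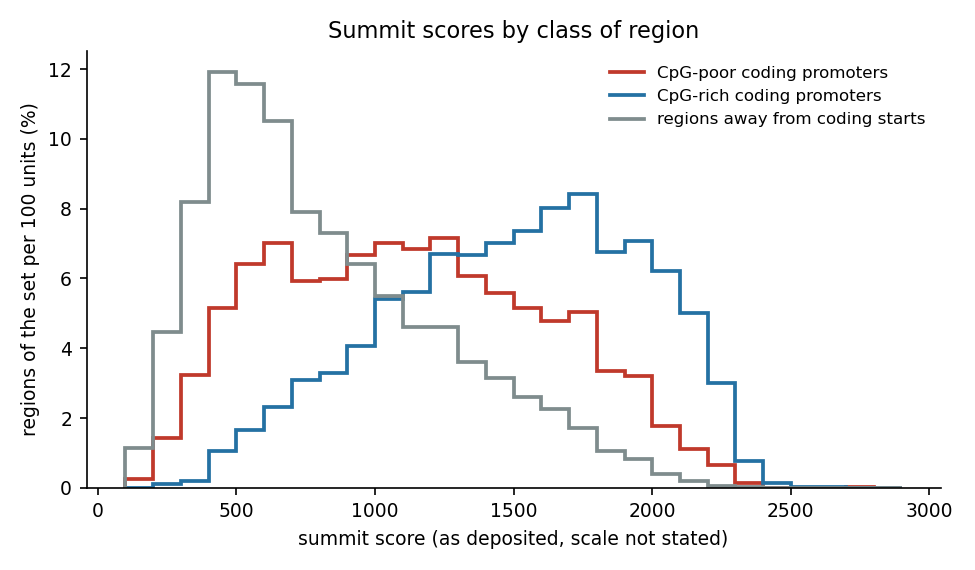
Distribution of the deposited summit score (horizontal axis, scale not stated) as the percentage of each set per 100 units (vertical axis) for CpG-poor promoters, CpG-rich promoters and regions away from coding starts. The CpG-poor curve lies between the other curves, with medians of 1117, 1543 and 727, respectively.

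The 10 best scored members had CpG ratios of 0.521 to 0.587 apart from the first. After Gm10718, a predicted gene on chromosome 9 with a score of 2758 whose summit lies in fully repeat-masked sequence, came the shared promoter of Large2 and Pex16 (2388), genes of a glycosyltransferase and of peroxisome assembly. They were followed by the promoter of 1810062G17Rik and Anxa5, which encodes a phospholipid-binding annexin (2362), by Rab5b, an early endosome GTPase gene (2323), and by Trappc9, a vesicle tethering gene (2323). The other 5 of the 10 best scored were Chtf18 with Rpusd1 (2310), Pafah2 (2297), Ift27 (2284), Inpp5f (2284) and Msantd4 (2284). The lowest scores belonged to Acsl5, a fatty acyl-CoA synthetase gene (114), Phf21a (121), Oaf (167), Gja1, a gap junction gene (182), and Nt5dc2 (182).

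Regions with many summits included LPS-inducible cytokine genes. The members with the most summits in their extended region were Tnfaip2, a gene named for its induction by TNF, with 36, the cytokine genes Il1b with 20 and Tnf with 13, and Rhog and Mafg with 11 each. The widest peaks were at Eapp (1249 bp), Itga4, an integrin gene of leukocyte adhesion (1196 bp), Dazap1 with Gamt (1182 bp), Alyref2 (1180 bp) and Ccrl2, a chemokine receptor-like gene (1120 bp).

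The summits of CpG-poor promoters lay less close to a coding start. A summit lay within 100 bp of a coding start in 54.5% of CpG-poor promoters (Wilson interval 52.9% to 56.1%) and in 72.0% of CpG-rich promoters (71.0% to 73.1%). It lay over 250 bp away in 31.6% and 8.77%, respectively. Most summits sat upstream of the nearest start, 66.4% of CpG-poor and 75.1% of CpG-rich ones. The start itself was covered by the peak in 61.2% of CpG-poor and 89.5% of CpG-rich promoters. CpG-poor promoters also served starts on both strands less often, 3.77% against 12.5%.

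Many members lay at a later start of their gene. The region lay at the most upstream coding start of a gene in 2527 members (67.5%), against 92.5% of CpG-rich promoters. The 1214 members at a later start only had a median score of 979 and the other 2527 a median of 1164. A start with the highest transcript support of the annotation was within reach in 72.3% of CpG-poor and 90.7% of CpG-rich promoters. The median score was 1200 within 50 bp of a start, 1236 from 50 to under 100 bp and 1129 from 100 to under 250 bp. It was lower farther away, at 878 from 250 to under 500 bp, 845 from 500 to under 750 bp and 889 beyond. CpG-rich promoters had medians of 1418, 1644 and 1812 in the 3 nearest bins and of 1418, 1381 and 1296 in the others.

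**Figure D3:**
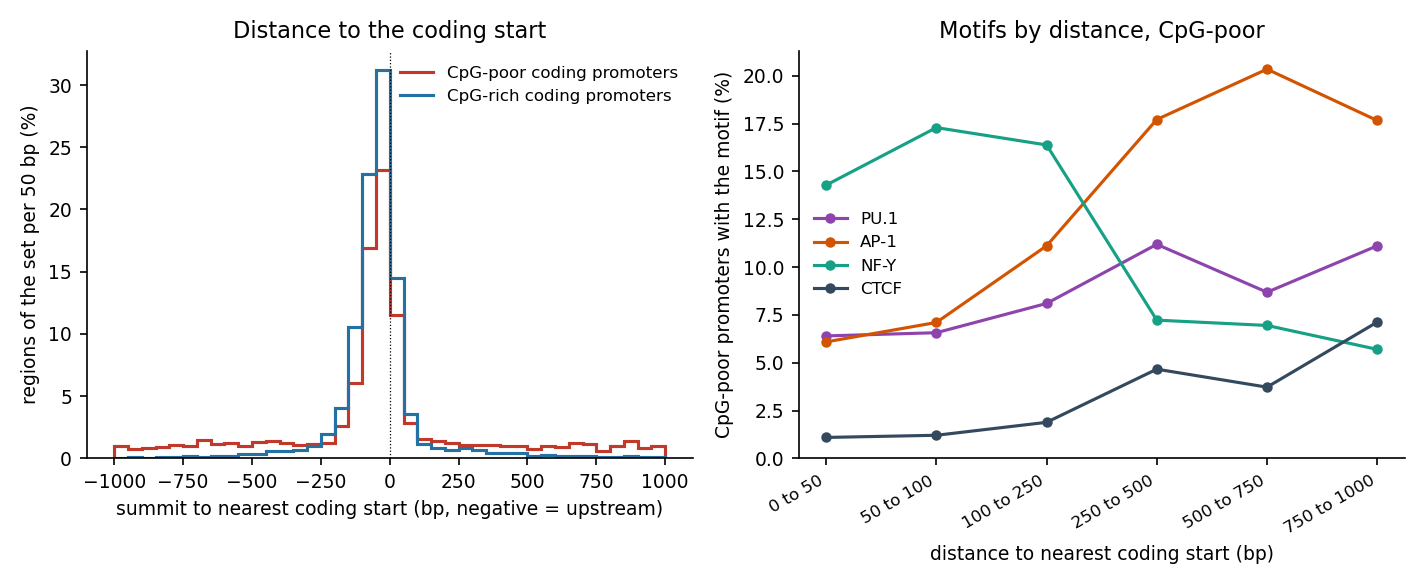
Left, distance from the summit to the nearest coding start (bp, upstream negative) as the percentage of each set per 50 bp for CpG-poor and CpG-rich promoters. Right, percentage of CpG-poor promoters with the PU.1, AP-1, NF-Y or CTCF motif (vertical axis) by distance to the start in bp (horizontal axis), where AP-1 is at 6.09% within 50 bp and 20.3% from 500 to 750 bp, and NF-Y is highest from 50 to 100 bp, at 17.3%, and at 5.70% beyond 750 bp.

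Sequence motifs of macrophage and LPS-activated factors were more frequent at CpG-poor than at CpG-rich promoters. Motifs were counted on both strands within 100 bp of the summit, with a flank of the same length 1000 bp to each side. PU.1 was matched in 7.91% of CpG-poor promoters (Wilson interval 7.09% to 8.82%), 2.12% of CpG-rich promoters, 11.5% of regions away from coding starts and 1.06% of the CpG-poor flanks. AP-1 was matched in 11.0% (10.0% to 12.0%), 1.93%, 20.3% and 2.74%, in the same order. Both were higher at CpG-poor than at CpG-rich promoters on 19 of 19 autosomes. For both, the CpG-poor promoters stood between the CpG-rich promoters and the regions away from starts.

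The NF-kB share of CpG-poor promoters was close to that of distal regions. It was 5.67% (4.97% to 6.45%), against 3.62% of CpG-rich promoters, 5.63% of other regions and 2.11% of flanks, and it was above the CpG-rich share on 16 of 19 autosomes. The IRF share of 8.05% (7.22% to 8.96%) compared with 3.09% of CpG-rich promoters, 9.30% of regions away from coding starts and 6.69% of flanks. For C/EBP (9.17%), RUNX (TGTGGTT, 5.61%) and STAT (TTCNNNGAA, 6.42%), factors of myeloid differentiation and cytokine signalling, the shares were over those of CpG-rich promoters (4.00%, 1.59% and 3.24%). The CpG-poor flank shares of 7.81%, 5.21% and 6.37% were each close to the summit share. At CpG-rich promoters the flanks held these motifs more often than the summits, at 8.84%, 4.81% and 6.56%, and likewise IRF at 6.70%.

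The class was defined by base composition, which moves with any motif count. The same letters in reversed order were therefore counted too. Reversed PU.1 (TGAAGGAG) was at 1.60% of CpG-poor and 0.884% of CpG-rich promoters, and reversed AP-1 (ACTCAGT) at 3.64% and 1.06%. The reversed IRF letters (AAGNNAAAG) were at 5.96% and 2.39%, and those of RUNX (TTGGTGT) at 2.57% and 1.12%. The reversed C/EBP letters (AANNCGTT), which hold a CG, went the other way, at 2.11% and 2.31%. The part of composition in the motif differences was not tested beyond these counts. Motifs that contain CG are tied to the rule and are given as a description: SP/KLF (GGGGCGGGG) was at 8.45% of CpG-poor and 24.8% of CpG-rich promoters, and ETS (CCGGAAGT) at 3.58% and 8.89%. Over all 11095 coding promoters the shares were 4.07% for PU.1, 4.98% for AP-1, 4.31% for NF-kB, 4.76% for IRF, 5.74% for C/EBP, 2.95% for RUNX, 4.31% for STAT, 19.3% for SP/KLF and 7.10% for ETS.

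The motifs of the general promoter factors NF-Y and YY1 went the opposite way. NF-Y (GCCAAT), the CCAAT box factor, was matched in 12.8% of CpG-poor promoters, 21.3% of CpG-rich promoters and 5.46% of CpG-poor flanks, and was lower at CpG-poor than at CpG-rich promoters on 19 of 19 autosomes. YY1 (AAGATGGC) was at 2.09% and 4.07%, against 3.40% of all coding promoters, and NF-Y at 18.4% of these. CTCF, the insulator factor, was at 2.49% of CpG-poor promoters, 0.829% of CpG-rich promoters, 1.39% of all coding promoters and 0.116% of flanks. MEF2, a factor family of muscle and myeloid cells, was at 1.39% of CpG-poor and 0.367% of CpG-rich promoters, 3.41% of the CpG-poor flanks and 0.712% of all coding promoters.

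Several motifs varied with distance or score among CpG-poor promoters, AP-1, NF-Y and CTCF among them. AP-1 was matched in 6.09% of members within 50 bp of a start, in 20.3% from 500 to under 750 bp and in 17.7% beyond. NF-Y was matched in 14.3% within 50 bp, 17.3% from 50 to under 100 bp, 16.4% from 100 to under 250 bp and 5.70% to 7.23% farther away. PU.1 was matched in 6.40% within 50 bp, 11.2% from 250 to under 500 bp, 8.68% from 500 to under 750 bp and 11.1% beyond that. Members with NF-Y had a median score of 1357 and those without a median of 1082. The 93 members with CTCF had a median score of 695 and a median distance of 408 bp from the start, against 1117 and 82 bp for those without. Median scores with and without the motif were close for PU.1 (1129 and 1106), NF-kB (1117 and 1117) and C/EBP (1094 and 1117). Median distances were 139 and 82 bp for PU.1, 93.5 and 83 bp for NF-kB and 100 and 82 bp for C/EBP. For IRF the distances were 86 and 84 bp and the scores 1036 and 1117. STAT had distances of 79 and 85 bp and scores of 1176 and 1106. Members with RUNX had medians of 1019 and 138.5 bp, against 1117 and 82 bp without. The 52 members with MEF2 had medians of 889 and 331.5 bp, against 1117 and 83 bp. YY1 had distances of 41 and 86 bp and scores of 1218 and 1106. None of the 7 motifs PU.1, AP-1, NF-kB, IRF, C/EBP, RUNX and STAT was found in 57.8% of CpG-poor promoters, 82.2% of CpG-rich promoters and 42.5% of other regions.

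**Figure D4:**
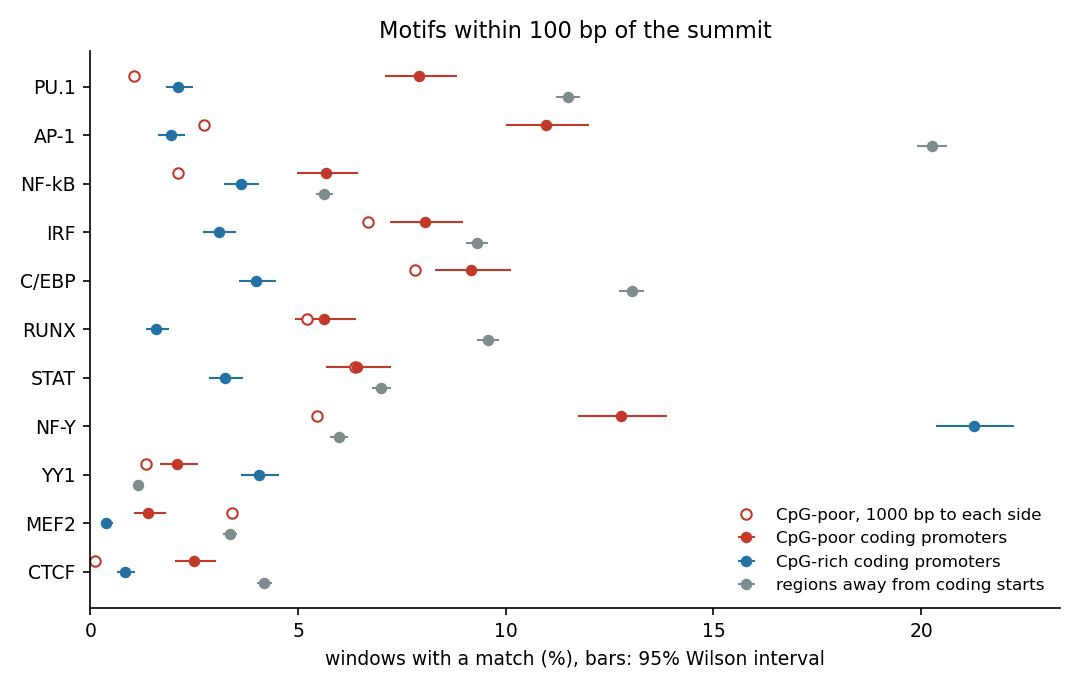
Percentage of windows with a motif match within 100 bp of the summit (horizontal axis) for 11 motifs without CG (vertical axis), with 95% Wilson intervals as bars. Filled points are CpG-poor promoters, CpG-rich promoters and regions away from coding starts, and open points are the CpG-poor flanks. PU.1, AP-1 and CTCF at CpG-poor promoters lie between the other sets and above their flanks.

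Genes with a CpG-poor promoter region numbered 3603, or 17.4% of the 20757 autosomal coding genes, and 2994 of them had no CpG-rich region. Seen from the genes, a CpG-poor start was much less often accessible than a CpG-rich one. Of 11132 genes whose most upstream coding start lay in CpG-poor sequence, 2993 (26.9%, Wilson interval 26.1% to 27.7%) had a summit within 1000 bp, against 8028 of 9625 (83.4%) genes with a CpG-rich start. Leaving out olfactory (Olfr) and vomeronasal (Vmn) receptor genes the CpG-poor share was 30.9%.

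Gene families with CpG-poor starts differed widely. A summit was present at 8 of 1137 olfactory receptor genes and 1 of 329 vomeronasal receptor genes. It was present at 0 of 110 keratin and keratin-associated protein genes (upper limit 2.73%) and 0 of 64 defensin genes (upper limit 4.69%). It was present at 7 of 91 cytochrome P450 genes. A summit was found at 15 of 28 chemokine genes of the Ccl and Cxcl families, 8 of 9 Toll-like receptor genes, 6 of 6 Ifit genes of the interferon response and 6 of 8 Slfn genes, and at 9 of 16 ribosomal protein genes (Rpl and Rps) with a CpG-poor start. Clec lectin genes, with 10 of 29 (34.5%, Wilson interval 19.9% to 52.7%), Gbp genes, with 4 of 11 (36.4%, 15.2% to 64.6%), and Ms4a genes, with 7 of 19 (36.8%, 19.1% to 59.0%), had intervals that include the 30.9% of all such genes outside the receptor families.

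Among 14 gene lists, macrophage identity genes had a CpG-poor region most often. Of 44 autosomal genes 38 (86.4%) had one, against 17.4% of all autosomal coding genes, with a median best score of 1499 over genes, against 1153 over all genes with a CpG-poor region. Sirpa led with 2179, followed by Cd68 (2021) and Tlr4, the LPS receptor gene (1982). The lowest was Cd36, a scavenger receptor gene, at 402. The genes with no region were Csf1r, the receptor gene for macrophage colony-stimulating factor, Plaur, Lyz1 and Marco. For Csf1r and Plaur a weaker summit lay 37 bp from the start, in a region whose best summit was over 1000 bp from it. PU.1 was matched in 8 of the 41 regions (19.5%) and C/EBP in 7 (17.1%), against 7.91% and 9.17% of all CpG-poor promoters. These shares were not the highest of the 14 lists. PU.1 ran from 0% to 28.6%, the latter in 7 regions of LPS-induced regulators. C/EBP ran from 0% to 40.0%, the latter in 5 regions of other blood cells.

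Markers of several blood cells were looked up as a description, not as a check of the cell label. Of 10 macrophage markers, all of them also in the macrophage identity list, 9 had a CpG-poor region, the exception being Csf1r. Of 6 T cell markers 0 had a region, and of 6 B cell markers Ms4a1 (1013) and Ebf1 (515) had a CpG-poor one and Pax5 a CpG-rich one. Of 9 neutrophil and granule markers Camp (1094) and S100a8 (623) had one. Of the 4 autosomal erythroid and platelet markers 0 had one. In the whole list of 36 genes of other blood cells 5 (13.9%) had a CpG-poor region, near the 17.4% of all autosomal coding genes, and 29 had none. The NK receptor gene Klrb1c scored 1094.

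Genes of C-type lectins and of Fc, TREM and CD300 receptors, which bind sugars, antibodies, lipids and other ligands, had a CpG-poor region in 19 of 26 genes (73.1%). The share of all autosomal coding genes was 17.4%. The highest scores were found at Trem2, a lipid-sensing receptor gene (1708), Clec4a2 (1696) and Clec4a3 (1657), and the lowest at Cd300e (393). Of 15 inflammasome and cell death genes 12 (80.0%) had a region. They were led by the apical caspase gene Casp8 (2021) and the inflammasome sensor genes Nlrp3 (1708) and Nlrc4 (1683), with the necroptosis kinase gene Ripk3 lowest (802). Aim2, a cytosolic DNA sensor gene, had none within 1000 bp and its nearest summit was 15266 bp from its start. NF-kB was matched in 4 of the 13 inflammasome and cell death regions (30.8%), against 5.67% of all CpG-poor promoters. Over the 14 lists its share ran from 0% to 33.3%, the highest in the 12 regions of MHC and antigen presentation genes. It was 28.6% in the 7 regions of LPS-induced regulators and 22.7% in the 22 of LPS cytokines and effectors.

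LPS-induced cytokines and effectors and LPS-induced regulators differed in class. Of 34 cytokine and effector genes 21 (61.8%) had a CpG-poor and 2 only a CpG-rich region. Of 34 regulators, mostly transcription factors and feedback inhibitors, 7 (20.6%) had a CpG-poor region and 19 only a CpG-rich one, so their CpG-poor share was near the 17.4% of all autosomal coding genes. The highest scored cytokine and effector genes were Tnf (1877), Gpr84, a fatty acid receptor gene (1864), and the costimulator gene Cd40 (1760), and the lowest was the growth factor gene Csf2 (307). The median best score was 1164 for the cytokine and effector genes and 1851 for the 7 regulators. Over all genes with a CpG-poor region it was 1153. The regulators were led by Plek, a protein kinase C substrate gene (1916), and by Nfkbiz (1903) and Nfkb1 (1864) of the NF-kB family, with Rasgef1b lowest (524). Of the 11 cytokine and effector genes with neither class of region, 7 had a weaker summit within 1000 bp of the start, in regions with their best summit elsewhere, and so had all 8 such regulators.

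Chemokine genes had a CpG-poor region in 16 of 23 cases (69.6%), against 17.4% of all autosomal coding genes. Their median best score was 1468.5, against 1153 over all genes with a CpG-poor region. The highest were Ccl3 (2074), Ccl2 (1890) and Ccl4 (1838), which attract monocytes and other leukocytes, and the lowest was the neutrophil chemokine gene Cxcl3 (544). NF-kB was matched in 5 of the 16 regions (31.3%), against 5.67% of all CpG-poor promoters, and TATAAA stood 20 to 40 bases before a start in 6 (Ccl4, Ccl12, Ccl24, Ccl7, Cx3cl1 and Cxcl3). The stretches below show the 4 of these NF-kB matches that lay, with their flanks, outside annotated exons, in capitals, in mm10 and on the strand of the gene. They were chosen after the values were seen. Their places are chr5:90903787-90903828 (plus strand), chr5:92348967-92349008 (minus), chr5:90891159-90891200 (plus) and chr5:90786013-90786054 (plus).
Cxcl2: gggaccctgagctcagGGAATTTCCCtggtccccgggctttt
Cxcl10: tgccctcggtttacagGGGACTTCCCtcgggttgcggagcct
Cxcl1: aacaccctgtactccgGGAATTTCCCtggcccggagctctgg
Cxcl3: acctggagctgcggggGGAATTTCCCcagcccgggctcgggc
The matches were centred 64, 98, 62 and 70 bases before the start, in this order. The scores of the 4 regions were 1747, 1594, 911 and 544, so that a like match stood in regions from high to low in the catalog.

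The TATA boxes of 5 chemokine promoters are shown as the last 45 bases before the start. The box is in capitals, and these stretches were also chosen after the values were seen. They lie at chr11:83662539-83662583, chr11:82101800-82101844, chr5:135573050-135573094 (minus strand), chr11:82045667-82045711 and chr5:90786058-90786102, the others on the plus strand.
Ccl4: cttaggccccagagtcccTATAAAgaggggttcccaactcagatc
Ccl12: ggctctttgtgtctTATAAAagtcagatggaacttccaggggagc
Ccl24: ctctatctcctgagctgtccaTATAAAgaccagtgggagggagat
Ccl7: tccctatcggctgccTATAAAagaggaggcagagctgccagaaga
Cxcl3: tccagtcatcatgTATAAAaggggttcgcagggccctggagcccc
The first base of the box lay 27, 31, 24, 30 and 32 bases before the start. Over all CpG-poor promoters a TATAAA at 20 to 40 bases before a coding start was found in 61 (1.63%, Wilson interval 1.27% to 2.09%), against 1.07% of CpG-rich promoters. A window shifted 100 bases upstream gave 0.481% and 0.435%. Apart from the 6 chemokine regions, the box stood at 5 of the 22 regions of LPS cytokine and effector genes (Tnf, Il1b, Cd69, Icam1 and Clec4e), at 2 of 30 regions of interferon-stimulated genes and at 1 region each of the antigen presentation, core metabolism and other tissue lists. Most of the 61 members with the box belonged to none of the lists.

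Interferon-stimulated genes had a CpG-poor region in 29 of 40 cases (72.5%), against 17.4% of all autosomal coding genes. Their median best score was 1308, against 1153 over all genes with a CpG-poor region. The highest were Irf9, a subunit gene of the interferon-activated factor ISGF3 (1825), Ifi204, a DNA sensor gene (1773), and the antiviral GTPase gene Mx2 (1721). The lowest was Ddx58, which encodes the RNA sensor RIG-I (593). The IRF motif was matched in 22 of 30 regions (73.3%), against 8.05% of all CpG-poor promoters, and the STAT motif in 5 (16.7%), against 6.42%. A further 5 genes had only a CpG-rich region. The 8 stretches below, chosen after the values were seen, are the IRF matches of the best scored interferon-stimulated genes outside annotated exons, with the match in capitals. They come from chr1:173767056-173767096 (minus strand), chr16:97535128-97535168 (plus), chr7:104465204-104465244 (minus), chr8:71537572-71537612 (minus), chr19:34583358-34583398 (plus), chr5:120749899-120749939 (minus), chr12:26456547-26456587 (minus) and chr6:121245831-121245871 (plus).
Ifi204: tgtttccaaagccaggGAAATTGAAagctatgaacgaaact
Mx2: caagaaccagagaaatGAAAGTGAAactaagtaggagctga
Trim30a: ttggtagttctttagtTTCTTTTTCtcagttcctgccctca
Bst2: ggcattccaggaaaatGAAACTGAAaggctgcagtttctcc
Ifit3: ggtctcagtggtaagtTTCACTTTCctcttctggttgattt
Oas2: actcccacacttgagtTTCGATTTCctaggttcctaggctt
Rsad2: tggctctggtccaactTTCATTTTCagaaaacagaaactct
Usp18: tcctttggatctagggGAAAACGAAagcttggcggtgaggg
The Mx2 match was centred 935 bases before the annotated start, and the other 7 were centred 31 to 157 bases before theirs. The scores ran from 1357 at Usp18, a gene that restrains interferon signalling, to 1773 at Ifi204.

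IL-4 response genes had a CpG-poor region in 16 of 30 cases (53.3%), against 17.4% of all autosomal coding genes. Their median best score was 1094, below the 1153 over all genes with a CpG-poor region. Tgm2, a transglutaminase gene (1381), and the lectin genes Clec10a (1296) and Clec7a (1260) led, and Pparg, a lipid-sensing nuclear receptor gene, was lowest (290). STAT was matched in 1 of the 16 regions (6.25%), near the 6.42% of all CpG-poor promoters. The letters searched have the 3-base spacer of STAT sites in general, while STAT6 prefers a longer one, so the count says nothing of STAT6 sites. MHC and antigen presentation genes had a CpG-poor region in 12 of 20 cases (60.0%). The peptide-loading gene H2-DMa (2021), the class I gene H2-Q4 (1982) and B2m, the class I light chain gene (1721), led, and Ciita, the regulator gene of MHC class II, was lowest (554). H2-Ab1, Cd74 and Cd80 had none. For H2-Ab1 and Cd74 a weaker summit lay 2 and 145 bp from the start.

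Genes of lysosome and lipid metabolism had a CpG-poor region in 12 of 24 cases (50.0%), against 17.4% of all autosomal coding genes. Grn, the progranulin gene (2179), Ctsd, the cathepsin D gene (1864), and Lipa, the lysosomal acid lipase gene (1864), led, and Cd63, a tetraspanin gene, was lowest (402). Ctsk, Ctsz, Abcg1 and Atp6v0d2 had neither class of region, although a weaker summit lay 54 bp from the Ctsz start and 189 bp from the Abcg1 start. In genes used by all cells the CpG-poor share was near the 17.4% of all autosomal coding genes. Of 25 translation genes 4 had one (Rpl18 2034, Rpl3 2008, Rpl4 685 and the elongation factor gene Eef1a1 573), 20 had only a CpG-rich region and Rps9 had neither, with a weaker summit 15 bp from its start. Of 24 genes of proteasome and core metabolism 4 had one, the glycolytic genes Gapdh (1760), Eno1 (1381) and Tpi1 (1369) and the proteasome gene Psmd1 (1059). Of 39 genes of other tissues 4 (10.3%) had a CpG-poor region, namely the endothelial cadherin gene Cdh5 (1721), Cela1 (1248), Col1a1 (613) and Gh (593). A further 33 had neither class.

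**Figure D5:**
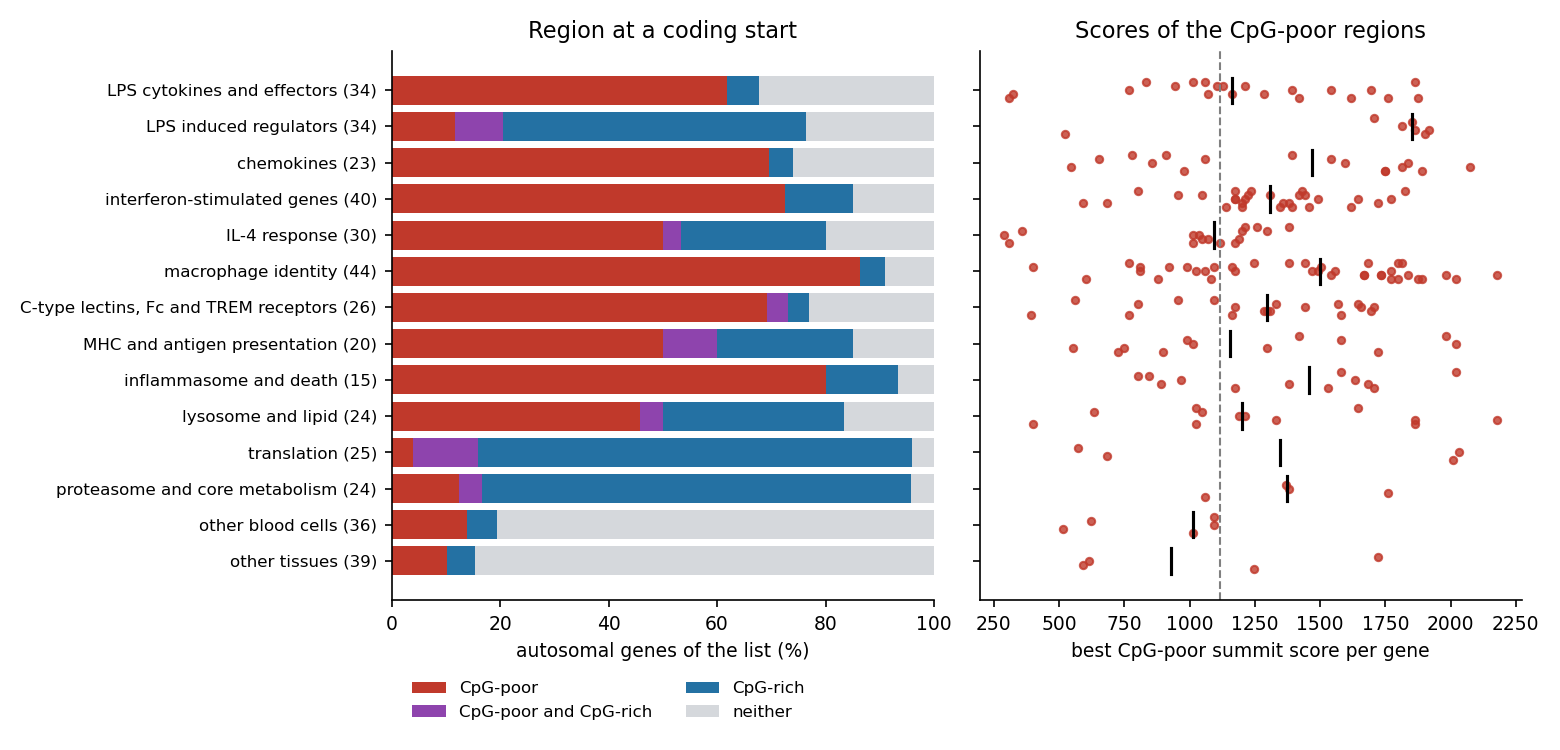
Left, percentage of the autosomal genes of each of 14 lists (number of genes in brackets) with a CpG-poor region, both classes, only a CpG-rich region or neither at a coding start. Right, best CpG-poor summit score of each gene (points) with the median over genes (black bars), and as a dashed line the median of 1117 over all members. Macrophage identity has the largest CpG-poor share (38 of 44 genes), and translation one of the smallest (4 of 25).

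CpG-poor promoters made up between 25.6% (chromosome 12) and 44.4% (chromosome 7) of the accessible coding promoters of an autosome. The densest run within 200 kb was on chromosome 3, at chr3:89090036-89279690, where 11 of 16 accessible coding promoters were CpG-poor. It held genes from Rusc1 to Efna1, and its scores ran from 554 to 1394. The next, at chr1:171196319-171388975, had 10 of 14 and held Fcer1g, the Fc receptor gamma chain gene, and Arhgap30. In the MHC class II region, at chr17:34135525-34325324, 9 of 11 were CpG-poor, from H2-DMa to H2-Eb2, with scores of 458 to 2021. A further 2 runs, on chromosomes 2 and 3, also held 9 members.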

How the data were processed

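ATAC-seq libraries (18 in all) were prepared from BMDM with Tn5 transposase. Per the study's methods, adapters were removed from the single-end reads with BBDuk, reads were trimmed with Trimmomatic 0.39 and aligned to mm10 with the mapping step of ShortStack, and unmapped, low quality and mitochondrial reads were removed with SAMtools 1.9. Peaks were called with MACS2 2.2.6 in each library with sub-peak summits, duplicate reads being kept and local background not used, and were kept when shared by replicates. A shift of reads for the Tn5 cut is not given in the sources used here, so summit positions may be offset by a few bases. The authors deposited pooled BED lists of 82391 reference peaks, 59617 extended regions and 84660 summits, in which the summits carry a deposited score from 102 to 2781 (median 737) of unstated scale. Depth per library is unknown.

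From these lists the best scored summit of each of 58386 autosomal extended regions was kept, with the lowest start at ties, and compared with 52101 coding transcript starts of GENCODE M21. Base composition and motifs were read from GRCm38.p6. Shares have 95% Wilson intervals, which cover counting error only, and autosomes are compared by direction. The interval of a difference of medians joins the order-statistic intervals of both medians, over regions that are not replicates. No test between groups was possible, and none was made over regions. For a share of 0 the limit is 3 counts of the total. The 420 listed genes were all found in the annotation. The members, gene lists, motifs and named genes were chosen with earlier results of these data known. Named were the 10 highest and 5 lowest scores, the 5 regions with most summits and the 5 widest peaks, the 3 best scored genes and the lowest one of each list, list genes without a region where these were 5 or fewer, the promoters nearest each limit, the 3 densest runs and the best scored example of each motif. Motif examples were restricted to exon-free sequence after the files were seen. Scripts used Python 3.11.15, numpy 2.4.6, pandas 2.3.3, scipy 1.17.1 and matplotlib 3.10.9, and were tested on simulated data. Regions on the sex chromosomes were not analysed here, and some genes that these rules name are not reported here. Alternatives covered the distance to a start, the composition window and conditions, the transcripts used, the score and the motif window.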

Additional observations from a re-analysis of the deposited data

How the results depend on the processing

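CpG-poor coding promoters had a lower median score than CpG-rich ones under every alternative run. Their number of 3741 fell to 1290 when both conditions were required, and was 7085 when the best summit of each reference peak was kept. Their share of the accessible coding promoters, 33.7%, was 29.5% for starts within 500 bp, 27.6% within 250 bp, 11.6% with both conditions, 31.7% with the CpG ratio alone, 28.4% with composition in 250 bp to each side, 32.3% with composition around the start, 40.9% with all transcripts of coding genes, 28.8% for summits at or above the median score, 39.8% per reference peak and 28.9% with starts of the highest transcript support, an alternative chosen after seeing the data. The difference of median scores, -426 (interval -462 to -389), was -379 within 500 bp, -356 within 250 bp, -511 with both conditions, -506 with all transcripts, -285 for summits at or above the median score and -380 with the highest support. With motif windows of 50 and 200 bp to each side, PU.1 was matched in 5.35% and 9.60% (against 7.91%), AP-1 in 7.32% and 13.1% (11.0%), NF-kB in 3.29% and 9.04% (5.67%) and IRF in 4.78% and 13.8% (8.05%). The NF-kB share of regions away from coding starts, 5.63%, was 3.42% and 7.74% in these windows, so its order with the CpG-poor share turned at 50 bp. For members within 250 bp of a start PU.1 was at 6.84% and AP-1 at 7.42%. The TATA share of 1.63% was 1.20% with the nearest start only. The cause of these changes was not tested. The pooled lists set the limit of these values, since neither the spread between libraries nor the sequencing depth can be read from them, and the score has no stated scale. No paired analysis was possible because the lists hold no column for a library.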
